A study of Homo sapiens with 24 samples.

Results

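Probes for heterogeneous nuclear ribonucleoproteins (hnRNPs) and serine/arginine-rich (SR) splicing factors were followed in human leukaemia cells recovered from 3 sites of xenografted mice. A probe belonged to the set when the platform gave it a gene symbol beginning with HNRNP or SRSF that did not end in P plus a number, a form used for pseudogenes. The rule gave 36 genes, 24 of the HNRNP and 12 of the SRSF kind, with 69 of the 47231 probes of the array, and 6 HNRNP pseudogene probes were left out by it. All 69 probes matched a RefSeq gene of the same symbol. Detection on at least 3 of the 24 arrays (detection p under 0.01) was met by 58 of the 69 probes, 45 for 22 HNRNP genes and 13 for 11 SRSF genes, within 17116 kept probes. Of these 58 probes, 47 were detected on all 24 arrays. The 11 probes that were not kept were detected on 0 arrays: 1 of HNRNPA1, 2 of HNRNPA1L2, 2 of HNRNPCL1, and 1 each of HNRNPCL2, HNRNPH1, HNRNPM, SRSF3, SRSF10 and SRSF12. HNRNPCL1, HNRNPCL2 and SRSF12 had no other probe and are not described further.

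hnRNPs coat nascent transcripts and often repress the use of nearby splice sites, while SR proteins bind exonic enhancers through RNA recognition motifs and recruit the spliceosome through arginine/serine-rich tails. The balance between the families is a classical determinant of alternative splicing, and many members also act in export, stability and translation of mRNA. Many of these genes limit their own mRNA by splicing in an exon with a premature stop codon, which sends the transcript to nonsense-mediated decay. Altered splicing is a known feature of myeloid leukaemia, where SRSF2 is mutated in a share of patients and HNRNPK is lost in some.

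The cells were OCI-AML3, an established human acute myeloid leukaemia line with a mutated nucleophosmin gene, here engineered to carry luciferase and GFP, grown in immunodeficient NSG mice and sorted by GFP and human CD45 from peripheral blood, spleen and femoral marrow. There were 3 control mice (numbers 4, 5 and 6, harvested on day 42 after inoculation), 3 mice treated for 24 h (1, 2 and 3, day 41) and 2 mice treated for 72 h (8 and 9, day 43), with 1 array per site and mouse. Treated mice received LY2510924, an inhibitor of the chemokine receptor CXCR4, at 2.5 mg/kg under the skin daily. The labels' sample characteristics spell the compound LY2510294. CXCR4 binds CXCL12, which retains haematopoietic cells in the marrow, and the series asks how site and CXCR4 inhibition each bear on expression. Every group shares the line, its transgenes and the host strain, and 1 line is 1 patient's leukaemia. The harvest day equals the treatment group, so the pair cannot be told apart. One BeadChip (chip 1) held the arrays of mice 1, 2, 3 and 4, and the other (chip 2) those of mice 5, 6, 8 and 9.

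Values are log2 signals after background correction and quantile normalisation, and differences are log2 differences with their standard error (SE). Probes differ in their response, so a level is compared between samples within a probe only. The mean signal of kept member probes over the 24 arrays lay between 5.45 (HNRNPH3, ILMN_2341645) and 13.93 (HNRNPD, ILMN_2321451). A probe was called when its adjusted p in limma was under 0.05, over all 17116 kept probes. Arrays measure a population, so fewer cells of a kind and less RNA per cell cannot be told apart. Probes of HNRNPA1 and HNRNPA1L2, HNRNPC and HNRNPCL3, HNRNPH1 and HNRNPH2, and SRSF2 and SRSF8 read genes with closely similar copies, and their signals may be shared.

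Between 13066 and 15721 probes were detected per array. Of 7 OCI-AML3 and myeloid markers on the array, 5 were detected, with LYZ, CD38 and MEIS1 on all 24 arrays and MPO and the NPM1 probe on 0. PTPRC, the CD45 gene, was detected on 13 arrays only (6 blood, 5 spleen and 2 marrow). ANPEP was detected on 21 (8 blood, 8 spleen and 5 marrow). Of 13 T and NK cell genes 7 were detected on 0 arrays (CD3D, CD3E, CD3G, CD5, CD7, CD8A and CD4), while IL7R, NKG7 and GNLY were detected on 24, GZMA on 19, GZMB on 17 and CD2 on 1. Of 5 B cell genes MS4A1, CD22 and PAX5 were detected on 0 arrays, CD79B on 7 and CD79A on 2. All 7 tissue macrophage genes were detected somewhere, CD163 and MARCO on 24 arrays and the other 5 on 1 to 11. The blood arrays of mice 1, 2, 8 and 9 stood apart from the rest: 4 small RNA genes (SNORD3A, SNORD3C, SNORD3D, RN7SK) averaged 12.5 to 14.07 on them, against 11.01 to 11.85 on the other 4 blood arrays, 7.85 to 11.78 in spleen and 8.03 to 9.41 in marrow. Called members in blood against marrow and blood against spleen are counted below with and without those mice, with values for some named probes. Subfamily counts, lists of other RNA processing genes and treatment comparisons in blood are not given without those mice as a set. Genes of G2/M and mitosis averaged 7.72 to 9.15 in blood, 8.42 to 9.83 in spleen and 8.79 to 9.73 in marrow.

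**Figure D1:**
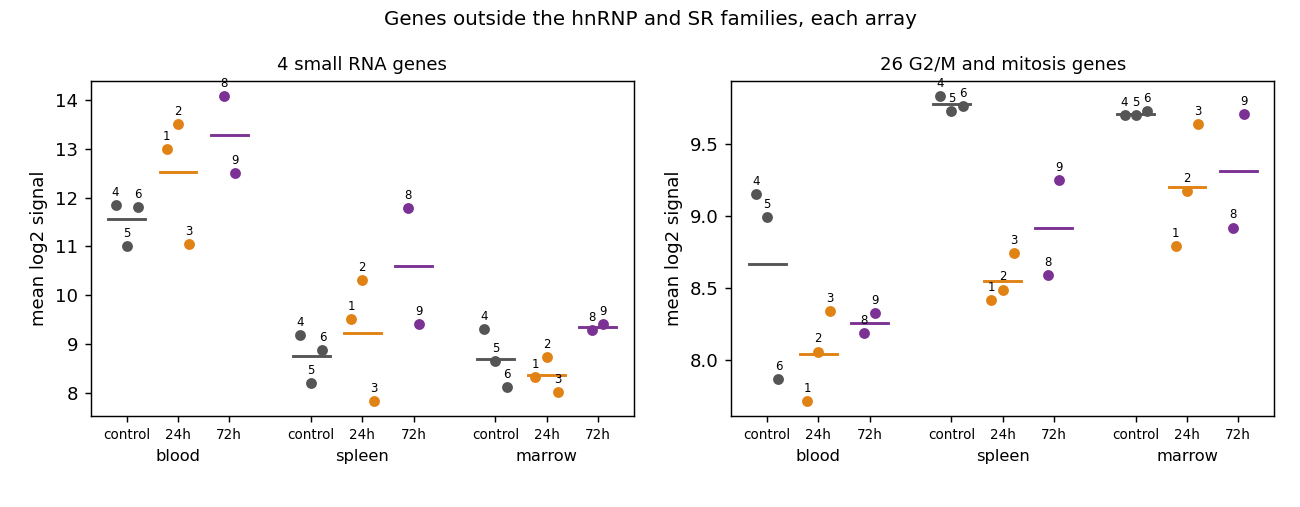
Mean log2 signal of 4 small RNA genes (left) and of 26 G2/M and mitosis genes (right), one point per array with its mouse number, bars for group means, by site and hours of treatment. The small RNA genes reached 12.5 or more only on the blood arrays of mice 1, 2, 8 and 9, and the mitosis genes were lowest in blood in 8 of 8 mice.

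In blood, most hnRNP and SR probes were lower than in marrow of the same mice. Averaged over the treatment groups, 42 of the 58 probes, from 26 genes, fell in blood and 0 rose, where 43.7% of all kept probes were called and 24.7% were called lower. The median difference of the 58 probes was -0.52, against -0.03 over all kept probes, and 54 of the 58 estimates were below 0. The fall was also seen mouse by mouse: 44 to 52 of the 58 probes were lower in blood in each of the 8 mice, that is 75.9% to 89.7% of them, against 50.3% to 55.7% of all probes. The median member difference in a mouse was -0.21, -0.21 and -0.34 in control mice 4, 5 and 6, -0.88, -0.91 and -0.22 in 24 h mice 1, 2 and 3, and -0.8 and -0.64 in 72 h mice 8 and 9. It was larger in mice 1, 2, 8 and 9, whose blood arrays had the highest small RNA signal, than in the control mice and mouse 3. The part of the small RNA signal in the result was not tested.

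**Figure D2:**
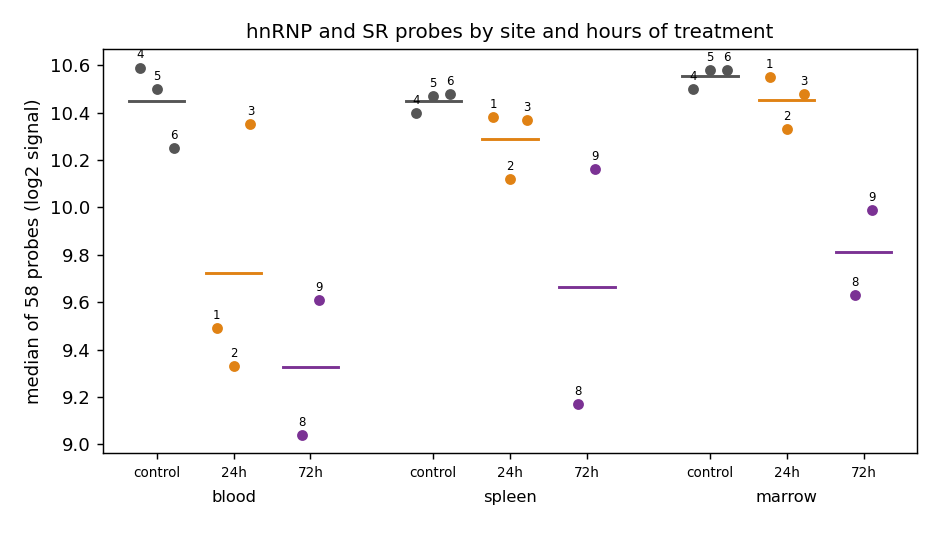
Median log2 signal of the 58 kept hnRNP and SR probes on each array, with mouse numbers, bars for group means, by site and hours of treatment (0 h is control). Control arrays lay between 10.25 and 10.59 at all 3 sites, and the blood arrays of mice 1, 2, 8 and 9 lay between 9.04 and 9.61.

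The count depended on which mice entered. Without mice 1, 2, 8 and 9, an alternative added after the data were seen, 16 of 58 probes were called in blood against marrow, all lower. That is 27.6% of members, below the 35.3% of all kept probes called in that fit and above the 18.3% called lower. Within chip 1 alone 2 members were called, SRSF3 and SRSF7, where 5.11% of all probes were called and 2.04% called lower. Within chip 2 alone 10 were called, all lower, where 12.9% of all probes were called and 6.59% called lower. With 1 probe per gene 25 of 33 genes were called, where 48.1% of all genes were, 24 lower and 1 higher, the higher one being HNRNPUL2 (adjusted p = 0.0476).

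Subfamilies were counted in the average over the treatment groups, where 24.7% of all kept probes were called lower. In control mice alone 0 of 45 hnRNP probes were called (5.8% of all probes lower), and A/B probes ran from -0.91 to 0.14. In the average, the A/B subfamily, abundant repressors of exon inclusion, was lower in blood for 11 of 11 probes, at -1.36 to -0.34. The F/H subfamily, which binds runs of guanines, was called lower for 8 of 8 probes. One of the 8, HNRNPH3 on ILMN_2341645, was detected on 0 of 8 blood arrays and 2 of 8 marrow arrays and was kept only through 24 h marrow and spleen, so its call, also part of the 42, is no measured fall. The other 7 ran from -1.48 to -0.55. The HNRNPH2 falls among them include blood values not above background. ILMN_2362245, at -1.48, was detected in 1 of 2 mice in 72 h blood. ILMN_1781764 was detected in 0 of 2 mice in 72 h blood and 1 of 3 in 24 h blood. HNRNPM, a regulator of alternative splicing known from epithelial cells, was lower on 3 of 3 probes (-0.83 to -0.6), HNRNPK, a poly(C)-binding protein, on 3 of 4, and the D subfamily, which binds AU-rich elements and affects mRNA decay, on 3 of 4. HNRNPR fell on 2 of 3 probes and HNRNPC, which competes with U2AF for uridine tracts, on 1 of 2. HNRNPL, a reader of CA repeats, fell by 1.2 ± 0.23 (SE), while its paralogue HNRNPLL had a difference of 0.2 ± 0.11 that did not pass (adjusted p = 0.16). In the U subfamily, whose members bind chromatin-associated RNA, 1 of 7 probes fell. HNRNPUL2 had the highest estimate of all members, 0.62 ± 0.24, without passing (adjusted p = 0.0505), and without mouse 9 it was 0.81. In control mice alone it was 0.12 ± 0.39, with 2 of 3 mice lower in blood. HNRNPUL2 averaged 11.69 in control, 10.24 in 24 h and 10.33 in 72 h marrow. In blood it averaged 11.82, 10.93 and 11.39 in the same order. Of the 13 SR probes 9 fell, with a median of -0.47, and those of SRSF4, SRSF6, SRSF11 and 1 of 2 of SRSF10 did not pass.

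**Figure D3:**
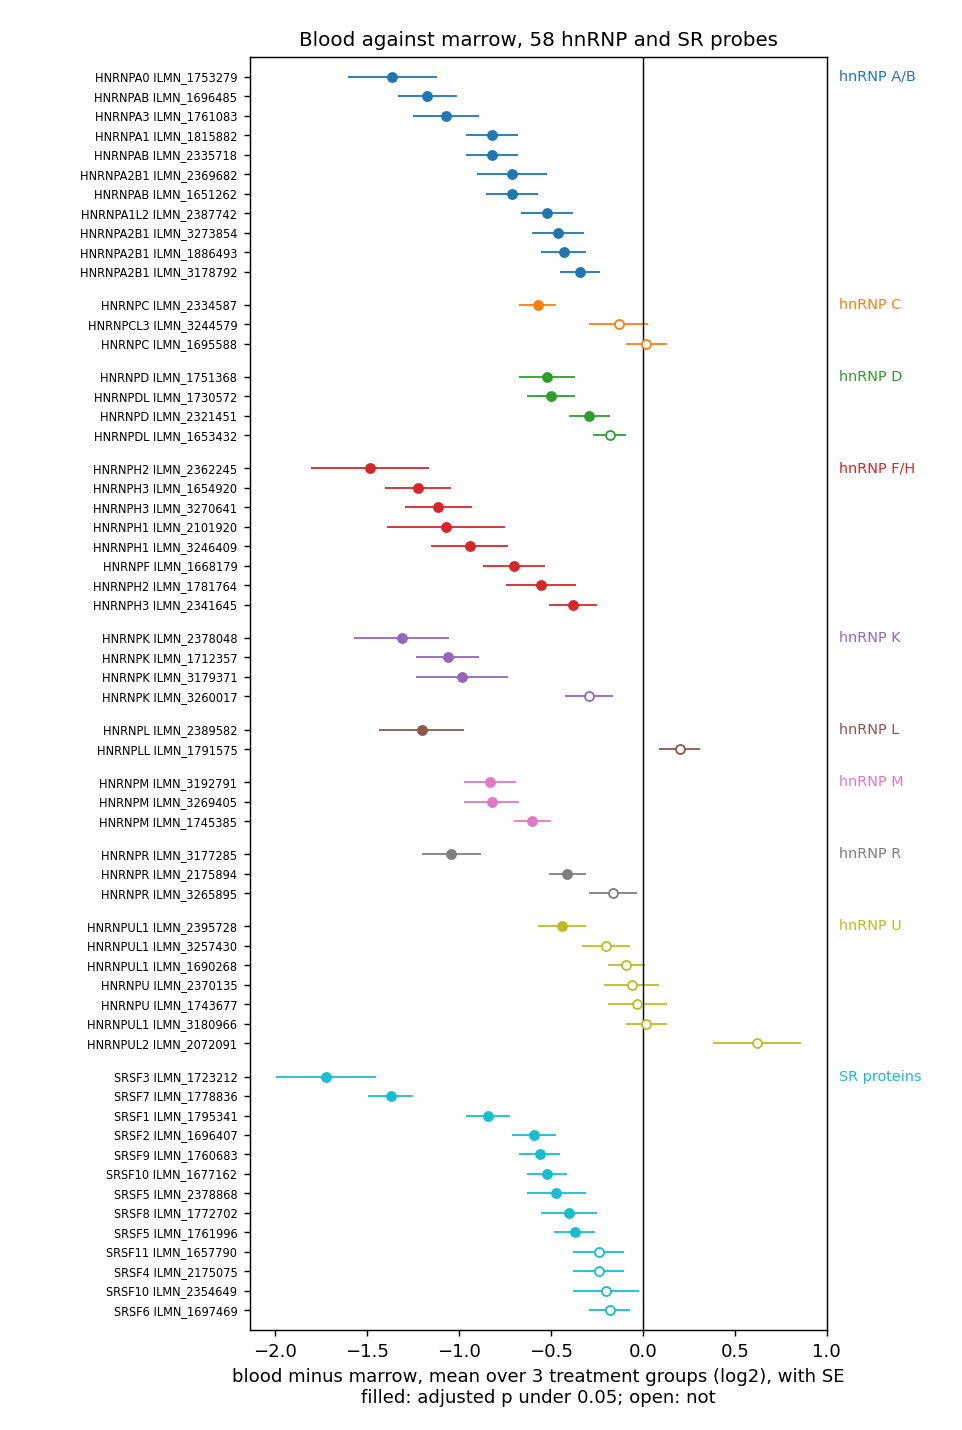
Log2 difference of blood minus marrow with its SE for each of the 58 kept probes, grouped by subfamily, filled where the adjusted p was under 0.05 and open where not. All 11 A/B and all 8 F/H probes are filled and left of 0, among them HNRNPH3 on ILMN_2341645, detected on 0 of 8 blood arrays, and 6 of 7 U probes are open.

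The 6 largest falls with the same sign in all 8 mice belonged to SRSF3, HNRNPH2, SRSF7, HNRNPA0, HNRNPK and HNRNPH3. SRSF3 encodes the smallest SR protein, which also links splicing to mRNA export. In blood it read 8.74, 9.12 and 8.06 in control mice, 6.53, 6.24 and 8.5 in 24 h mice and 6.89 and 6.22 in 72 h mice. In spleen it read 9.64, 9.37 and 9.39 in controls, 8.63, 7.81 and 8.74 at 24 h and 6.58 and 8.63 at 72 h. In marrow it read 9.76, 9.46 and 9.95 in controls, 10, 9.2 and 9.94 at 24 h and 7.63 and 8.37 at 72 h. Each mouse had less SRSF3 signal in blood than in marrow, and among treated mice only mouse 3 had blood levels within the control range. SRSF3 fell by 1.72 ± 0.27 in blood (SE, 8 mice, 3.29-fold lower, adjusted p = 0.000218).

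SRSF7, an SR protein with a zinc knuckle that shares export and splicing roles with SRSF3, had the lowest adjusted p of all members. Its blood signal was 8.63, 9.02 and 8.09 in control mice, 8.04, 8.03 and 7.64 in 24 h mice and 7.22 and 8.56 in 72 h mice. Marrow held 9.57, 9.78 and 9.62 in controls, 9.87, 9.45 and 9.47 at 24 h and 8.86 and 9.59 at 72 h. The ranges of blood and marrow overlapped only through control mouse 5 in blood and mouse 8 in marrow. SRSF7 fell by 1.37 ± 0.12 in blood (2.58-fold lower, adjusted p = 1.49e-06). Within control mice alone it was the only member called in blood against marrow, at -1.08 ± 0.18 (adjusted p = 0.0017). Without mice 1, 2, 8 and 9 its blood fall still passed.

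HNRNPA0, an A/B protein that binds AU-rich elements, averaged 9.62 ± 1.21 in blood and 10.94 ± 0.69 in marrow (SD, n = 8 mice) and fell by 1.36 ± 0.24 (SE, adjusted p = 0.000443). HNRNPK (ILMN_2378048) averaged 10.15 ± 1.6 in blood and 11.44 ± 1.08 in marrow and fell by 1.31 ± 0.26 (adjusted p = 0.000968). HNRNPK in blood read 11.74, 11.42 and 11.07 in controls, 9.41, 9.11 and 12.02 at 24 h and 7.91 and 8.49 at 72 h, and in marrow 11.94, 11.86 and 11.83, then 12.34, 11.83 and 12.24, then 9.47 and 9.97. In both genes the 4 lowest blood arrays were those of mice 1, 2, 8 and 9, while the 72 h marrow arrays were also below the other marrow arrays. HNRNPH2 (ILMN_2362245) averaged 8.43 ± 1.95 in blood and 9.85 ± 0.97 in marrow, a fall of 1.48 ± 0.32 (adjusted p = 0.00186). HNRNPH3 (ILMN_1654920) averaged 7.95 ± 0.94 in blood and 9.14 ± 0.42 in marrow, a fall of 1.22 ± 0.18 (adjusted p = 0.000125). HNRNPH3 in blood read 8.85, 9.18 and 8.39 in controls, 7.49, 7.05 and 8.48 at 24 h and 6.45 and 7.72 at 72 h, and in marrow 9.3, 9.51 and 9.41, then 9.64, 9.12 and 9.06, then 8.37 and 8.72. Its blood range reached into the marrow range through the controls and mouse 3. Without mice 1, 2, 8 and 9 the differences were -0.47 for HNRNPA0 (adjusted p = 0.0631), -0.34 for HNRNPK (adjusted p = 0.0916) and -0.21 for HNRNPH2 (adjusted p = 0.293). SRSF3, SRSF7 and HNRNPH3 kept their calls without those mice.

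**Figure D4:**
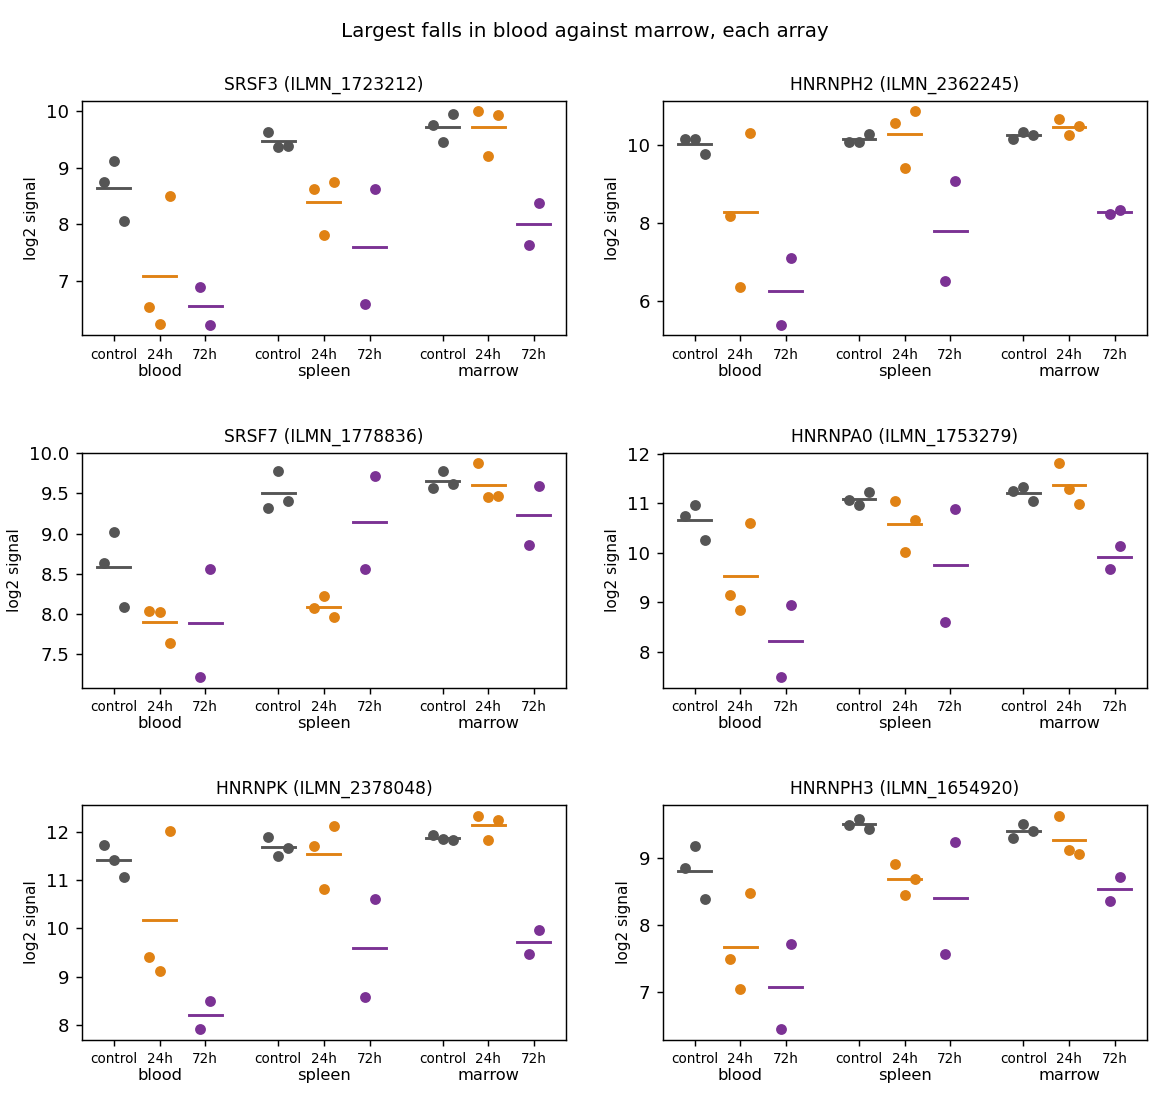
Log2 signal on each array of the 6 probes with the largest falls in blood against marrow, by site and hours of treatment, with bars for group means. SRSF7 in 24 h spleen (7.96 to 8.23) lies below control spleen (9.32 to 9.78), and the other 5 probes have low blood values in 24 h mice 1 and 2 and in both 72 h mice.

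The promoters of 4 of these genes are shown to set the sequences beside the values, the first listed for SRSF7, which has 2, and HNRNPH3, which has 3. They are the 250 bases before the transcription start in RefSeq's table for GRCh38.p14, 5′ to 3′ on the gene's strand, with matches to any of 5 motifs on either strand in capitals, so that a CCAAT box on the other strand reads ATTGG. SRSF3 lies at chr6:36594112-36594361 on the plus strand, SRSF7 at chr2:38751495-38751744 on the minus strand, HNRNPA0 at chr5:137754364-137754613 on the minus strand and HNRNPH3 at chr10:68331443-68331692 on the plus strand.
SRSF3: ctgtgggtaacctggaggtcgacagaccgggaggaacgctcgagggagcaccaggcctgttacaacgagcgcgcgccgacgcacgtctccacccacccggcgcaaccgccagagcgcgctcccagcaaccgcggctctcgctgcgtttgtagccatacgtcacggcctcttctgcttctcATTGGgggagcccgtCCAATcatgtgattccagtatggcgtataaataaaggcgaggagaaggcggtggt
SRSF7: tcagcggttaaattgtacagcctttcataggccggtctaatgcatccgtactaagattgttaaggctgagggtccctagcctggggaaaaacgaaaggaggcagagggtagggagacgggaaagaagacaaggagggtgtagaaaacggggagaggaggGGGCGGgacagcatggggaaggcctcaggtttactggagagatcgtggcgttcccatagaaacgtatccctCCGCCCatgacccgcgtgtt
HNRNPA0: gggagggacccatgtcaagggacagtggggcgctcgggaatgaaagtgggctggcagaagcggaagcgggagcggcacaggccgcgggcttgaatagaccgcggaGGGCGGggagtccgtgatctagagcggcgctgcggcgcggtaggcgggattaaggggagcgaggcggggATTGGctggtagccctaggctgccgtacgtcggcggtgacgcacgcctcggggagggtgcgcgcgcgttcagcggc
HNRNPH3: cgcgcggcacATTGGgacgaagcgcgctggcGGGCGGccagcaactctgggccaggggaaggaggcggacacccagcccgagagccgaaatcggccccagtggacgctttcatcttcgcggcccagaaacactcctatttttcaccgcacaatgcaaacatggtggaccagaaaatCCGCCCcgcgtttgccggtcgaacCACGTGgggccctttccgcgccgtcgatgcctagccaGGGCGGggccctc

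The motifs were searched on both strands, and of the 33 genes with a kept probe 30 had a promoter in the table. A member gene with several promoters there was read through the first listed, while the 35116 promoters compared include every one of a gene. The CCAAT box, searched by those letters, was found in 15 of the 30 promoters, which is 50%, against 32% of 35116 promoters of the same length. The GC box, searched as GGGCGG, was found in 19 member promoters (63.3%, against 42.6% of all promoters). The E-box, searched as CACGTG and bound by MYC and related factors, was found in 6 member promoters (20%, against 6.34% of all promoters). The ETS site, searched as CCGGAAG, was found in 5 member promoters (16.7%, against 8.52% of all promoters). The cAMP response element, searched as TGACGTCA, was found in 0 member promoters and in 1.65% of all promoters. The median GC content was 65.2% in member promoters and 58% in all promoters. SRSF3 holds 2 CCAAT boxes and no GC box, SRSF7 2 GC boxes and no CCAAT box, and HNRNPH3 holds an E-box, a CCAAT box and 3 GC boxes. These are matches of letters, and no comparison of the study bears on binding at them.

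Against spleen, blood was again the lower site. Averaged over the treatment groups, 25 of 58 probes from 18 genes fell in blood against spleen and 0 rose, where 20.5% of all kept probes were called and 11.6% called lower. The median was -0.35, against -0.02 over all probes. The 6 largest falls with the same sign in every mouse were those of HNRNPH3 on both of its brighter probes (-1.01 ± 0.18 and -0.96 ± 0.18), HNRNPK (-1.01 ± 0.26), HNRNPA0 (-1 ± 0.24), SRSF7 (-0.79 ± 0.12, adjusted p = 0.00126) and HNRNPAB, an A/B protein that binds single-stranded nucleic acids (ILMN_1696485, -0.72 ± 0.16). The 25 include HNRNPH3 on ILMN_2341645, which no blood array detected (0 of 8) and which 2 of 8 spleens did. Without the mouse block 7 members were called, where 7.58% of all probes were, within chip 1 alone 0 (0.0292% of all probes) and within chip 2 alone 1, SRSF7 (1.3%). Leaving out mouse 1, 2, 3, 4, 5, 6, 8 or 9 gave 11, 16, 33, 13, 16, 5, 32 or 8 members, where 10.6%, 12.7%, 29.1%, 9.63%, 12.1%, 6.44%, 25.6% or 15.6% of all probes were called. Leaving out mice 1, 2, 8 and 9 together gave 0, where 3.38% of all probes were called. In control mice alone 1 member was called in blood against spleen, SRSF7 at -0.93 ± 0.18 (adjusted p = 0.014), where 4.12% of all probes were called and 1.44% called lower. It lost the call when control mouse 4, 5 or 6 was left out (adjusted p = 0.0848, 0.0846 and 0.344).

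Fewer members passed between spleen and marrow. In spleen against marrow 2 of 58 probes fell, SRSF7 (-0.58 ± 0.12, adjusted p = 0.00629) and HNRNPA1L2 (-0.51 ± 0.14, adjusted p = 0.0415), where 8.44% of all kept probes were called and 3.83% called lower. By mouse, SRSF7 differed by -1.8, -1.22 and -1.51 in the 24 h mice. It differed by -0.25, 0 and -0.21 in controls and by -0.3 and 0.13 at 72 h. The averaged fall of SRSF7 was thus mainly that of the 24 h mice. The median of the 58 probes was -0.21, against -0.02 over all. The number of calls was 1 without mouse 2, 4, 5 or 6, and 5 without mouse 9, where HNRNPAB, HNRNPA3, SRSF3, HNRNPL and SRSF7 fell and 9.79% of all probes were called. Without mouse 2, 4, 5 or 6 the share of all probes is not given, so that count of 1 is no result about the members. The number of calls was 0 within either chip, also without that share. In control mice, limma called 0 of 58 members in spleen against marrow, where 0.351% of all kept probes were called. There 1 member had an unadjusted p under 0.05, against 841 of 17116 kept probes. In control mice, blood against marrow gave 1 of 58, SRSF7, where 12.8% of all probes were called and 5.8% called lower. SRSF7 lost that call without control mouse 6 (-0.85, adjusted p = 0.0719). Of the 58 members 10 had an unadjusted p under 0.05 in this comparison, against 4692 of 17116 kept probes. The site means ran blood below spleen below marrow in 45 of 58 probes. This order was not counted over all kept probes, so it is not read as a trait of the members. In control mice SRSF7 read 9.32, 9.78 and 9.41 in spleen, against 9.57, 9.78 and 9.62 in marrow, and these ranges overlapped.

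The question of treatment within a site was read against the same 3 control mice at 24 h and 72 h, so both times share their control arrays. Called probes named for a treatment comparison had to have groups that did not overlap, so that separation is part of the choice and no result. In spleen at 24 h, 4 of 58 probes were called, 1 higher and 3 lower, where 9.72% of all kept probes were called, 4.93% higher and 4.78% lower. SRSF7 in spleen was 8.07, 8.23 and 7.96 in 24 h mice, against 9.32, 9.78 and 9.41 in control mice. The groups did not overlap, and the difference was -1.42 ± 0.33 (2.67-fold lower, adjusted p = 0.0105). At 72 h the 2 spleens read 8.56 and 9.72, and 1 of them lay within the control range. In marrow SRSF7 read 9.87, 9.45 and 9.47 at 24 h, against 9.57, 9.78 and 9.62 in control mice, and these ranges overlapped. Whether the site differences of SRSF7 depended on 24 h of treatment gave an F of 13.5 with an unadjusted p of 0.000466 in limma, the smallest among members, and an adjusted p of 0.101. Mitosis genes moved in the same arrays: 12 of 26 were called lower in 24 h spleen, against 5.36% of all genes, and their mean was 8.42 to 8.74 in 24 h spleens, against 9.73 to 9.83 in control spleens. Their part in the SRSF7 value was not tested.

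HNRNPC is a core component of the particles that package nascent transcripts, and HNRNPDL is a D-type protein that regulates its own mRNA. HNRNPC (ILMN_2334587) read 10.03, 10.57 and 10.48 in 24 h spleens, against 11.33, 11.01 and 11.09 in control spleens, without overlap (-0.78 ± 0.18, adjusted p = 0.00904). The other HNRNPC probe, ILMN_1695588, read 9.22, 8.71 and 8.44 in 24 h spleens and 9.42, 9.15 and 9.06 in control spleens, which overlapped. The 2 probes of HNRNPDL passed in opposite directions. ILMN_1653432 read 12.07, 12.01 and 12.53 in 24 h spleens, against 11.43, 11.19 and 11.41 in controls, and rose by 0.86 ± 0.19 (adjusted p = 0.0096). ILMN_1730572 read 8.04, 8.1 and 7.47 in 24 h spleens, against 9.02, 8.96 and 8.9 in controls, and fell by 1.09 ± 0.26 (adjusted p = 0.0136). Neither probe had overlapping groups, and the probes' positions in the transcripts are not given in the sources used here. The number of calls moved with single mice: 0 of 58 probes were called without mouse 4, 1 without mouse 5 (HNRNPC), 2 without mouse 6 (SRSF7 and HNRNPC), 1 without mouse 1 (HNRNPDL) and 8 without mouse 2, where 11.4% of all probes were called. For the fits without mouse 1, 4, 5 or 6 that share is not given, so their counts are no result about the members. Within chip 1, which holds 1 control mouse, 0 members and 0% of all probes were called.

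The distance between the HNRNPDL probes on an array, a pattern picked after the values were seen and given without a test, was 3.91 to 5.06 in 24 h spleens, against 2.23 to 2.51 in control spleens. It was 2.99 to 3.32 in 24 h marrow, against 2.19 to 2.6 in control marrow, and 2.72 to 4.4 in 24 h blood, against 2.69 to 3.44 in control blood. At 72 h it was 1.66 to 2.05 in spleen, 1.85 to 2.45 in marrow and 1.52 to 2.35 in blood. Spleen and marrow arrays of 24 h mice thus lay above the controls of their site without overlap, blood arrays overlapped them, and 72 h spleens and blood lay below.

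**Figure D5:**
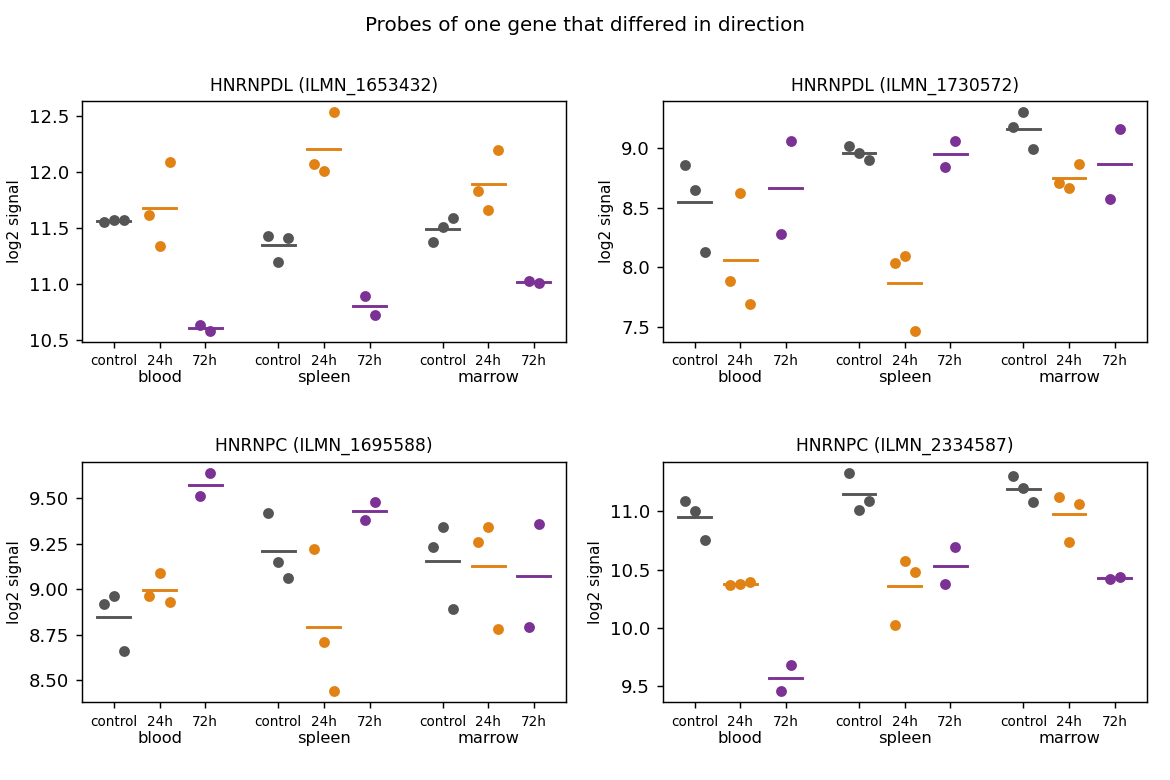
Log2 signal on each array of both probes of HNRNPDL (top) and of HNRNPC (bottom), by site and hours of treatment, with bars for group means. In 24 h spleen ILMN_1653432 of HNRNPDL is above and ILMN_1730572 below the control spleens, and in 72 h blood the HNRNPC probes lie on opposite sides of the control blood values.

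In blood at 72 h, 40 of 58 probes from 24 genes were called, 38 lower and 2 higher, where 30.7% of all kept probes were called, 17.4% lower and 13.3% higher. The median was -1.02, against -0.04 over all probes. F/H probes were called lower for 7 of 8, SR probes for 9 of 13 (median -0.99), A/B probes for 8 of 11 and HNRNPM for 3 of 3. HNRNPH2 (ILMN_2362245) read 5.4 and 7.12 in 72 h blood, against 10.15, 10.16 and 9.78 in control blood, and fell by 3.77 ± 0.78 (adjusted p = 0.00391), being detected in 1 of the 2 mice. HNRNPK (ILMN_2378048) read 7.91 and 8.49 at 72 h, against 11.74, 11.42 and 11.07 in controls, and fell by 3.21 ± 0.63 (adjusted p = 0.00318). HNRNPK on ILMN_1712357 read 4.69 and 4.98 at 72 h, where it was detected in 0 of 2 mice, against 6.5, 7.51 and 6.77 in controls, which makes it at least 1.83-fold lower (adjusted p = 0.00249). In such a bound the undetected side is set, per array, to the lowest detected signal where its own is lower. HNRNPA0 read 7.5 and 8.95 at 72 h, against 10.75, 10.96 and 10.25 (-2.43 ± 0.56), and HNRNPH1, a G-run binder close to HNRNPH2, read 7.37 and 7.65, against 10.05, 10.07 and 9.69 on ILMN_2101920 (-2.43 ± 0.65). In all 5 probes both 72 h arrays lay below all 3 control arrays, which the choice of probes required except for HNRNPK on ILMN_1712357. The count of 38 includes HNRNPH3 on ILMN_2341645, which was detected in 0 of 2 mice at 72 h and 0 of 3 controls, so no fold is given for it.

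The 2 probes called higher belonged to HNRNPC and HNRNPUL1, whose other probes did not move with them. HNRNPC (ILMN_1695588) read 9.51 and 9.64 in 72 h blood, against 8.92, 8.96 and 8.66 in controls (0.73 ± 0.24, adjusted p = 0.0295). ILMN_2334587 of the same gene read 9.46 and 9.68, against 11.09, 11 and 10.75, and fell by 1.38 ± 0.2 (adjusted p = 0.00122). The distance from the second to the first HNRNPC probe was thus -0.04 to 0.05 in 72 h blood and -1.46 to -1.29 in 24 h blood, against -2.17 to -2.04 in control blood, given without a test as above. HNRNPUL1, a nuclear RNA-binding protein linked to DNA repair, was detected on ILMN_3257430 in 2 of 2 mice at 72 h and 0 of 3 controls, at least 1.6-fold higher (adjusted p = 0.0116), while its probe ILMN_2395728 fell by 0.78 ± 0.28 (adjusted p = 0.0405).

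The 72 h blood result rests on 2 mice. Without the blood array of mouse 8 the members called were 2, HNRNPK on ILMN_1712357 and HNRNPC on ILMN_2334587, where 2.05% of all probes were called. Without mouse 8 at all they were 5, on probes of HNRNPK, HNRNPC, SRSF3 and HNRNPH3 (5.47% of all probes), and without mouse 9 they were 40 (39.8%). Both leave the lone 72 h blood array assumed to vary like the other groups. Without control mouse 4, 5 or 6 they were 14, 10 or 25, where 14%, 10.8% or 18.1% of all probes were called. Fitted on the blood arrays alone, limma called 0 members and 0 probes of 17116, and within chip 2 it called 18 members, 17 lower and 1 higher, where 17.8% of all probes were called. HNRNPH2 without the blood array of mouse 8 was at -2.91 (adjusted p = 0.0853) and HNRNPK at -2.92 (adjusted p = 0.0573). The small RNA genes were 12.5 to 14.07 in 72 h blood, against 11.01 to 11.85 in control blood, and their part in the result was not tested.

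In blood at 24 h, limma called 0 of 58 members, where 0.0175% of all probes were called. Of the members 23 had an unadjusted p under 0.05, against 2506 of 17116 kept probes. The member median was -0.54, against -0.02 over all probes. The 24 h blood arrays were unlike each other, with a median member signal of 9.49, 9.33 and 10.35 in mice 1, 2 and 3, against 10.59, 10.5 and 10.25 in the control mice. Without mouse 3, 29 members were called, all lower, where 15.5% of all probes were called and 9.09% called lower. With array weights 35 were called, 34 lower and 1 higher, where 31.8% of all probes were called and 17.4% called lower. HNRNPL (ILMN_2389582), detected in 2 of 3 mice at 24 h, read 6.2, 5.49 and 7.75 there, against 7.96, 7.91 and 7.7 in controls (-1.38 ± 0.42, adjusted p = 0.225), with mouse 3 inside the control range, and HNRNPC (ILMN_2334587) read 10.37, 10.38 and 10.39, against 11.09, 11 and 10.75 (-0.56 ± 0.18, adjusted p = 0.233).

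In marrow, limma called 0 of 58 members at 24 h, where 0.158% of all probes were called. Of the members 2 had an unadjusted p under 0.05, against 1347 of 17116 kept probes. HNRNPUL2, a member of the U group, read 10.2, 10.41 and 10.11 in 24 h marrow, against 12.2, 11.53 and 11.35 in control marrow (-1.46 ± 0.45, adjusted p = 0.33). Its groups did not overlap, and it passed when the marrow arrays were fitted alone (adjusted p = 0.0163). The dim HNRNPH3 probe ILMN_2341645 was detected in 2 of 3 mice at 24 h and 0 of 3 controls, at least 1.1-fold higher (adjusted p = 0.507). It is among the 2 members with an unadjusted p under 0.05. Since it was kept only through 24 h marrow and spleen, its rise here is tied to the filter and is no result.

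In marrow at 72 h, 0 of 58 members passed, where 1.87% of all probes were called. Of the members 18 had an unadjusted p under 0.05, against 3578 of 17116 kept probes. The member median was -0.41, against 0.01 over all probes. HNRNPC (ILMN_2334587) read 10.42 and 10.44 in 72 h marrow, against 11.3, 11.2 and 11.08 in controls (-0.76 ± 0.2, adjusted p = 0.0508), and HNRNPK (ILMN_2378048) read 9.47 and 9.97, against 11.94, 11.86 and 11.83 (-2.15 ± 0.63, adjusted p = 0.0735). In both the 72 h arrays lay below all control arrays. Fitted on marrow arrays alone 20 members were called, all lower, where 23.2% of all probes were called and 13.3% called lower. Without mouse 3 there were 7 (6.97% of all probes), and with the mouse as a random block 1 (2.39%). HNRNPC on ILMN_2334587 also passed without the blood array of mouse 8 (adjusted p = 0.0436).

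In spleen at 72 h, 0 of 58 members passed in limma, where 0.619% of all probes were called. Of the members 29 had an unadjusted p under 0.05, against 4042 of 17116 kept probes. The member median was -0.64, against -0.01 over all probes. The 2 mice differed, with a median member signal of 9.17 in mouse 8 and 10.16 in mouse 9, against 10.4 to 10.48 in control spleens. Without mouse 9, 35 members were called, all lower, which assumes that the lone spleen of mouse 8 varies like the other groups, and 26.2% of all probes were called there and 14.5% called lower. Without mouse 3 there were 12, where 7.4% of all probes were called. HNRNPR (ILMN_3265895), an hnRNP also known for binding neuronal mRNA, read 8.97 and 9.24 at 72 h, against 10.27, 9.76 and 9.95 in controls (-0.89 ± 0.23, adjusted p = 0.0802). HNRNPL, detected in 1 of 2 mice at 72 h and 3 of 3 controls, read 5.51 and 7.44, against 7.92, 8.26 and 8.3 (adjusted p = 0.091). Its fitted difference of -1.68 ± 0.47 includes the value that was not above background.

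Whether site differences depended on treatment was tested over both differences from marrow at once. The F test in limma called 0 of 58 members for 24 h, where 0.111% of all probes were called. It called 0 of 58 for 72 h, where 0.263% of all probes were called. For 24 h 13 members had an unadjusted p under 0.05, against 3116 of 17116 kept probes. For 72 h 8 members did, against 2540 of 17116 kept probes. After SRSF7, the smallest p values at 24 h were those of HNRNPH3 on ILMN_2341645 (adjusted p = 0.119), HNRNPDL on ILMN_1653432 (adjusted p = 0.179) and SRSF5 on ILMN_1761996 (adjusted p = 0.21). This HNRNPH3 probe, detected on 4 arrays, was kept only through 24 h marrow and spleen. Its p is thus tied to the filter and is no result. SRSF5, an SR protein, read 13.95, 13.23 and 13.51 in 24 h spleens, against 12.76, 12.91 and 12.89 in control spleens, without overlap and without passing (0.71 ± 0.23, adjusted p = 0.0553). For 72 h they were HNRNPA2B1, a reader of exosome-sorting motifs and a core A/B protein, on ILMN_1886493 (adjusted p = 0.225), HNRNPR on ILMN_3265895 (adjusted p = 0.269) and HNRNPC on both probes (adjusted p = 0.273 and 0.286). Without mouse 3 the 24 h test called 15 members, SRSF7 with an adjusted p of 0.0379, where 9.35% of all probes were called. Without mouse 9 the 72 h test called 12.5% of all probes and 2 members, both HNRNPA2B1 (adjusted p = 0.0288 and 0.0372).

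Probes of 1 gene did not always agree. Among the 15 member genes with more than 1 kept probe, 6 had probes that differed in call in blood against marrow: HNRNPC, HNRNPDL, HNRNPK, HNRNPR, HNRNPUL1 and SRSF10. HNRNPC fell by 0.57 ± 0.1 on ILMN_2334587 and stood at 0.02 ± 0.11 on ILMN_1695588. HNRNPR fell by 1.04 ± 0.16 and 0.41 ± 0.1 on ILMN_3177285 and ILMN_2175894 and stood at -0.16 ± 0.13 on ILMN_3265895. HNRNPK fell on 3 probes (-1.31 to -0.98), and the fourth, ILMN_3260017, was detected on 7 arrays only and stood at -0.29 ± 0.13. SRSF10, an SR-like factor known to repress splicing after heat shock, fell by 0.52 ± 0.11 on ILMN_1677162, while ILMN_2354649 was detected on 8 arrays (-0.2 ± 0.18). HNRNPUL1 fell on ILMN_2395728 (-0.44 ± 0.13) and its other 3 probes stood between -0.2 and 0.02.

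Other genes of RNA processing were read through their brightest probe, from lists chosen with earlier results of these data known. Over all 10351 genes so read, 20.7% were called higher and 25.9% lower in blood against marrow. Of 24 other hnRNP-type RNA-binding proteins 12 fell and 2 rose (median -0.34, against -0.03 over all genes), among them FUBP1 (-1 ± 0.18), a single-strand DNA binder, and MATR3 (-0.86 ± 0.16), a nuclear matrix protein, while PCBP4, a poly(C)-binding protein, rose by 0.7 ± 0.15. Of 23 SR-related proteins 7 fell and 2 rose, ZRSR2 of the minor spliceosome (1.04 ± 0.14) and LUC7L of the U1 particle (0.78 ± 0.12). Of 17 SR kinases, phosphatases and import factors 7 fell and 2 rose, including PRMT1, an arginine methyltransferase of hnRNPs, which fell by 0.92 ± 0.14, and CLK3, an SR kinase, which rose by 0.73 ± 0.11. Of 55 core spliceosome genes 20 fell and 5 rose, with SNRPD1, a ring protein of the small nuclear particles, lower by a log2 difference of -1.44 ± 0.16 and SART1 of the tri-snRNP higher by 0.96 ± 0.11. Of 13 genes of nonsense-mediated decay and the exon junction complex 8 fell and 0 rose, with MAGOHB at -1.58 ± 0.19. Of 26 G2/M and mitosis genes 25 fell and 0 rose, and all 4 small RNA genes rose. The marker sums moved as well: 13 erythroid genes summed to 1850 to 20600 in blood, 18200 to 21200 in spleen and 9190 to 22100 in marrow in linear signal, with 7 of them detected on 0 arrays, and 13 T and NK cell genes to 3680 to 11000, 2150 to 10400 and 1170 to 3980, with 7 on 0 arrays. The part of these markers in the member values was not tested.

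In 72 h blood against control blood, 13.3% of all genes were called higher and 19.4% lower. The hnRNP-type list had 11 of 24 lower and 0 higher, with PTBP2, a repressor of neuronal exons, at -2.32 ± 0.41. The SR-related list had 9 of 23 lower, with BCLAF1 at -1.68 ± 0.32, and the SR kinase list 7 of 17 lower, with CLK4 at -1.92 ± 0.39, and neither had a gene called higher. The core spliceosome list split, with 10 of 55 lower and 9 higher, among them CDC40 at -1.45 ± 0.34 and SNRPA, the U1 A protein, at 0.86 ± 0.21. Nonsense-mediated decay genes were lower in 6 of 13, with the kinase SMG1 at -2 ± 0.4.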

How the data were processed

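RNA from 24 samples was amplified in 2 rounds, biotin labelled and read on Illumina HumanHT-12 v4 arrays, per the labels' protocols. The authors deposited a table of signal intensity per probe on a linear scale without background subtraction, with a detection p-value beside each intensity, per the file headers. GenomeStudio is named in the submitters' processing notes, and its version is not given in the sources used here. Symbols came from the platform annotation: 30113 probes had 1 symbol, 8 several and 17110 none.

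Intensities were corrected and quantile normalised with limma's neqc (offset 16, limma 3.58.1, statmod 1.5.0, R 4.3.3), with the negative control distribution inferred from the detection p-values over 770 steps. Log2 values here are these computed signals. The deposited series values, made by the authors in a linear intensity scale, served as an alternative after log2. Probes detected (p under 0.01) on at least 3 arrays were kept. Site comparisons used each mouse as a block, since the labels' numbers mark mice whose 3 arrays come from 1 animal. Deviations of same-mouse arrays correlated at 0.272 on average over 24 pairs. The value over 42 pairs of different mice was -0.155. Deviations within a group sum to 0, so the second value is tied to the first and is no independent reference. Treatment comparisons within a site used a fit of the 9 group means over all arrays. Site differences average the 3 treatment groups equally, so they are not exactly differences of 8-mouse means. Adjusted p-values are Benjamini-Hochberg over all kept probes in each of 14 comparisons. The scripts were tested on simulated data. The number of arrays limits the precision. Site p-values rest on how far site differences vary among mice of a treatment group, since the mouse block takes out each mouse's level. Treatment p-values rest on the spread of arrays within the 9 groups, pooled over all 24 arrays. That fit treats the 3 arrays of a mouse as independent, while their consensus correlation was 0.253 with mouse as a random block.

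Members and lists were chosen with earlier results of these data known. Named probes were the 6 largest rises and falls past the threshold with the same sign in all mice per site comparison (3 in control mice), up to 4 per treatment comparison whose groups do not overlap or the 2 smallest p where none passed, the 4 smallest p per F test, and all probes of genes whose probes differ in sign or call. Gene lists used the brightest kept probe of a gene. Alternatives were another background correction, the deposited series values, other filters, 1 probe per gene, array weights, other blocks, single sites, single BeadChips and left-out mice or arrays. Promoters came from RefSeq's table. The genome build of the array is not given in the sources used here.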

Additional observations from a re-analysis of the deposited data

How the results depend on the processing

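Of 277 alternative counts of called members, 183 stayed within 1.5 times the reported count and 94 did not, and of 1185 values for named probes 976 kept direction and call, 152 lost and 40 gained the call, and 17 turned sign. The cause was not tested. The counts of this section stand without the share of all probes called in the same fit, and that share differed between fits. They show how far the counts moved and are no result about the members. Leaving out 1 mouse at a time gave 34 to 44 calls in blood against marrow (42 reported), 1 to 5 in spleen against marrow (2), 5 to 33 in blood against spleen (25), and in control mice 0 to 3 (1), 0 to 0 (0) and 0 to 2 (1). It gave 0 to 15 and 0 to 2 for the F tests at 24 h and 72 h, 0 to 0 and 0 to 7 in 24 h and 72 h marrow, 0 to 8 and 0 to 35 in spleen, and 0 to 29 and 5 to 42 in blood.

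Without the mouse as a block, which pairs the 3 arrays of a mouse (no replicate block), 35 members were called in blood against marrow, 0 in spleen against marrow and 7 in blood against spleen, and in control mice 1, 0 and 0. With mouse as a random replicate block, treatment comparisons gave 5 in 24 h spleen, 39 in 72 h blood and 1 in 72 h marrow. Array weights gave 14 in control blood against marrow, 4 in spleen against marrow, 1 in control spleen against marrow, 15 in control blood against spleen, 25 in the 24 h F test, 2 and 22 in 24 h and 72 h marrow, 12 in 24 h spleen, and 35 and 23 in 24 h and 72 h blood.

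Within BeadChip 1 the counts were 2 in blood against marrow, 0 in spleen against marrow, 0 in blood against spleen and 0 in 24 h spleen, and within BeadChip 2 they were 10, 0 and 1, and 18 in 72 h blood. Fits of single sites gave 1 in 24 h marrow, 20 in 72 h marrow, 2 in 24 h spleen and 0 in 72 h blood. Without mice 1, 2, 8 and 9, chosen after seeing the data, 16 were called in blood against marrow and 0 in blood against spleen. Without the 24 h blood arrays there were 3 in control blood against marrow, 15 in blood against spleen, 2 in control blood against spleen, 8 in 72 h marrow, 7 in 24 h spleen and 12 in 72 h spleen. Without the blood array of mouse 8 there were 2 in control blood against spleen, 1 in 72 h marrow and 2 in 72 h blood. With 1 probe per gene there were 25 in blood against marrow, 2 in control blood against marrow, 1 in 72 h marrow and 22 in 72 h blood.

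Raw quantile-normalised signal gave 3 in control blood against marrow, 1 in spleen against marrow and 1 in 72 h marrow. No filter gave 1 in spleen against marrow, 14 in blood against spleen and 1 in 72 h marrow, and probes detected on all arrays gave 3 in control blood against marrow, 1 in spleen against marrow and 1 in 72 h marrow. Series values centred on each array gave 14 in blood against spleen and 23 in 72 h blood. Unscaled series values gave 0 in control blood against marrow, 0 in spleen against marrow, 0 in control blood against spleen, 0 in 24 h spleen and 16 in 72 h blood. They moved the median of all probes in blood against marrow to -0.21 (members -0.7) and in 72 h against control blood to -0.43 (members -1.23), and 28% of their calls in blood against marrow were higher.

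Sign turned in blood against marrow, for uncalled probes. HNRNPC on ILMN_1695588 (0.02) stood at -0.19 unscaled, -0.01 with array weights, -0.22 within BeadChip 1, -0.05 to 0.1 with 1 mouse left out at a time (below 0 without mouse 3 or 8), -0.01 without the blood array of mouse 8 and -0.08 without mice 1, 2, 8 and 9. HNRNPUL1 on ILMN_3180966 (0.02) stood at -0.17 unscaled, -0.01 with array weights, -0.08 within BeadChip 2, -0.07 to 0.07 with 1 mouse left out at a time (below 0 without mouse 2, 5 or 9) and -0.14 without the 24 h blood arrays. HNRNPUL1 on ILMN_1690268 (-0.09) stood at 0 on centred series values, and SRSF10 on ILMN_2354649 (-0.2) at 0.41 within BeadChip 1 and 0.14 without mice 1, 2, 8 and 9. Signal over background limits the 11 members detected on fewer than 24 arrays.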
